A study of Mus musculus with 24 samples.

Results

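STAT, IRF and SOCS genes encode the transcription factors and feedback inhibitors of cytokine signalling, and 9 of them, Stat2, Stat3, Irf1, Irf5, Irf7, Irf8, Socs1, Socs3 and Cish, were followed here through macrophage activation. Every probe annotated to 1 of these genes and detected at p under 0.01 on at least 3 of 24 arrays was a member, which gave 15 probes of 9 genes, among 16498 probes and 8875 genes tested. All 15 probes were detected on all 24 arrays, so no member was lost to the filter. Irf1 had 5 probes, Stat3 had 3 and each of the other genes had 1.

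The cells were bone marrow-derived macrophages from adult female C57bl/6J mice, grown in L929 conditioned medium. Both genotypes carried floxed Gch1 alleles: GCHfl/fl littermates (wild-type, animals 2, 3 and 6) and GCHfl/flTie2cre mice (animals 1, 4 and 5), in which the Tie2 promoter drives Cre in endothelial and bone marrow-derived cells and deletes Gch1, the gene of the first enzyme of tetrahydrobiopterin synthesis. After serum starvation, cells were harvested untreated (0 h) or after 2, 8 or 24 h of LPS together with interferon-γ, so no group shows either agent alone. Each of the 6 animals gave an array at all 4 times, with 3 arrays in each of 8 groups.

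LPS signals through Toll-like receptor 4, while interferon-γ signals through JAK kinases that phosphorylate STAT proteins, and STAT dimers bind GAS elements in DNA. Type I interferon, which LPS-treated macrophages make themselves, signals through a complex that holds STAT2 and IRF9 and binds ISRE elements, and the IRF proteins bind related sites. SOCS proteins, CISH among them, are made in response to STAT activation and turn the receptors and their kinases off.

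The RefSeq promoter window of each gene, from 250 bases before to 50 bases after an annotated start (GRCm38.p6), was found for all 9 genes and read on the gene's own strand. The windows were searched on both strands for a GAS motif spelled TTCNNNGAA, which reads the same on either strand and occurred in 8.3% of 32851 mouse promoter windows, and for an ISRE motif spelled GAAANNGAAA, which occurred in 3.44%. The GAS letters were found in Irf1, Irf8, Socs3 and Cish, and the ISRE letters in Socs1 and, on the opposite strand, in Stat2. The 6 windows that hold a match are printed, and capitals mark the matched letters.
Irf1, chr11:53769764-53770063, plus strand, GAS at -90 to -82 from the start: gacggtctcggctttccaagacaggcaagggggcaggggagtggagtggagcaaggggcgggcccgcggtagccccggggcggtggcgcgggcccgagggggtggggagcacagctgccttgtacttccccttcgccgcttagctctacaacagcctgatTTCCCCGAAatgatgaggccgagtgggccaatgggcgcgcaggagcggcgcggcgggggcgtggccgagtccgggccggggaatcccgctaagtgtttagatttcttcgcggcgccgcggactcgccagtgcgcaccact
Irf8, chr8:120736108-120736407, plus strand, GAS at -171 to -163 and at -153 to -145: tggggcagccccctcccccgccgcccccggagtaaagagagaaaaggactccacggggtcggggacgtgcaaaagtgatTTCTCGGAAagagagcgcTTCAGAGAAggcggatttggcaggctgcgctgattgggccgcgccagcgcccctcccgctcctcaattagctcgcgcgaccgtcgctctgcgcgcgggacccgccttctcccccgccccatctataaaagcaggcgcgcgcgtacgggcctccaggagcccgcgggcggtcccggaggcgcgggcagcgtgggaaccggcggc
Socs3, chr11:117969317-117969616, minus strand, GAS at -154 to -146: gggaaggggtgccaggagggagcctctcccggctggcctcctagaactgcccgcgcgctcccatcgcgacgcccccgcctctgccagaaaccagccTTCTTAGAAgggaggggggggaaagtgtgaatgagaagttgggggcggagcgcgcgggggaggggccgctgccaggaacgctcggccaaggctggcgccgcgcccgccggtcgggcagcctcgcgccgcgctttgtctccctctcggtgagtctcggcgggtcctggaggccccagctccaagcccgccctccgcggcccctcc
Cish, chr9:107296409-107296708, plus strand, GAS at bases 1 to 9 and 12 to 20 after the start: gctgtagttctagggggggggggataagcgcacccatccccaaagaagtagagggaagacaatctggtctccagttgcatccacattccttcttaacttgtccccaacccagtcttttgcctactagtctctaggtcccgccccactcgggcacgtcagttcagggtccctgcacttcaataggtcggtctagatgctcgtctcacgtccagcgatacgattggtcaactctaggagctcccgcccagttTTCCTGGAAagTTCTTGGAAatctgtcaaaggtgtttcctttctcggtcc
Socs1, chr16:10785487-10785786, minus strand, 2 overlapping ISRE matches at -83 to -74 and -77 to -68: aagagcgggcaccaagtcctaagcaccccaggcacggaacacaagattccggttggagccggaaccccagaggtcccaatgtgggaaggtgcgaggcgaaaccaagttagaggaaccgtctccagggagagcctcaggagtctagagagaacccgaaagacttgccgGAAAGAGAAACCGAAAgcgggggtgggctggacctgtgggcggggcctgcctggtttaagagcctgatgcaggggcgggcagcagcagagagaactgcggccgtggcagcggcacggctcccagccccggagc
Stat2, chr10:128270248-128270547, plus strand, ISRE on the opposite strand at -222 to -213: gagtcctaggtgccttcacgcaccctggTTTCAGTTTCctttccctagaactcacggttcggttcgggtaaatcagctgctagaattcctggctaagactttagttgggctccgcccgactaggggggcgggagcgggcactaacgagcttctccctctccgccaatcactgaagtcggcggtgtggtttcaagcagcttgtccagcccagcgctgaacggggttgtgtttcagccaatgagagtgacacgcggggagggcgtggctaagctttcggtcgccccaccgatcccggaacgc
A second annotated start of Irf1 and of Irf8, and the windows of Stat3, Irf5 and Irf7, held neither string of letters. A match is a string of letters in a window and not a measured binding site.

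Values below are log2 normalized intensities. Differences are log2 values with the standard error of the fit. A gene was represented by its brightest tested probe and counted as changed at a limma adjusted p under 0.05 and a fold over 1.5, with p-values adjusted over all 16498 probes. Levels of different probes are not compared, since a probe's brightness also depends on its sequence.

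Mean intensity per array ran from 593 to 1750, and 27.0 to 33.3% of probes were detected. Gch1 differed by -2.55, -2.23, -2.60 and -1.86 in GCHfl/flTie2cre against GCHfl/fl cells at 0, 2, 8 and 24 h, with no overlap between genotypes on its brightest probe, and so matched its labels; whether that probe lies in the deleted part is not given in the sources used here. Of 8 macrophage markers, 7 had a probe and all 7 were detected on every array. Of the T and NK cell, B cell and erythroid markers with a probe, 0 were detected on 3 or more arrays. Of 6 dendritic cell genes only Siglech was detected, on 24 arrays, and the summed level of the list at 0 h was 739 to 826 in GCHfl/flTie2cre and 953 to 1161 in GCHfl/fl cells. Of 6 fibroblast and endothelial genes Dcn and Kdr were detected on 10 and 8 arrays, and the sum of that list ran from 297 to 360 at 0 h and from 482 to 628 at 24 h. The part of these cells in the results was not tested. Of 5 neutrophil genes with a probe, Camp, Ngp and Ltf were detected on 14, 10 and 10 arrays. Animals 5 (GCHfl/flTie2cre) and 6 (GCHfl/fl) deviated alike: what separated each of their arrays from its group mean correlated at 0.73 to 0.809 between the 2 animals. With every other animal at the same time the correlation was -0.321 or lower. Deviations within a group of 3 sum to 0, which by itself favours negative values, so these do not measure a distance from the other 4. The summed level of the neutrophil genes was also lower in these 2 animals at 0, 2 and 8 h (208 to 214 against 834 to 2550 at 2 h) and overlapped at 24 h (209 to 233 against 227 to 365). In bulk RNA, fewer cells of a type and less RNA per cell cannot be told apart. The results whose calls changed with animals 1 to 4 alone, those of Irf1, Irf8 and Cish, are given by animal and without animals 5 and 6. Other members split by these animals with no changed call, among them Stat3 at 24 h and Irf5 and Socs1 at 8 h. The part of other cells in these results was not tested.

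Stimulation raised most of the group in both genotypes, and early. At 2 h, 6 of 9 genes rose and 0 fell in GCHfl/fl cells, against 6.56% of all genes that rose and 9.63% that fell, and 5 rose and 0 fell in GCHfl/flTie2cre cells (6.31% and 10.7% of all genes). At 8 h, 7 rose and 0 fell in each genotype, where 14.6% of all genes rose and 16.6% fell in GCHfl/fl cells and 15.8% and 19.1% in GCHfl/flTie2cre cells. The median difference of the 9 genes in GCHfl/fl cells was 0.92 after 2 h and 1.13 after 8 h, while the median over all genes was -0.10 and -0.05. By 24 h only Irf7 and Socs3 were higher than at 0 h in GCHfl/fl cells (2 rose, 0 fell; 17.6% and 15.1% of all genes), and in GCHfl/flTie2cre cells Irf7, Socs3 and Socs1 were higher and Irf1 and Irf5 lower (3 rose, 2 fell; 17.5% and 15.7% of all genes). These 24 h counts varied with the animals used. In GCHfl/flTie2cre cells 3 members were called without animal 1 and 2 without animal 4. The share of all probes called there at 24 h was 29% without animal 1, against 32.6% with all animals. With animals 1 to 4 alone 4 members were called in GCHfl/fl cells, 2 higher and 2 lower. The shares of all probes without animal 4 and with animals 1 to 4 alone are not given here, so those counts cannot be set against them.

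**Figure D1:**
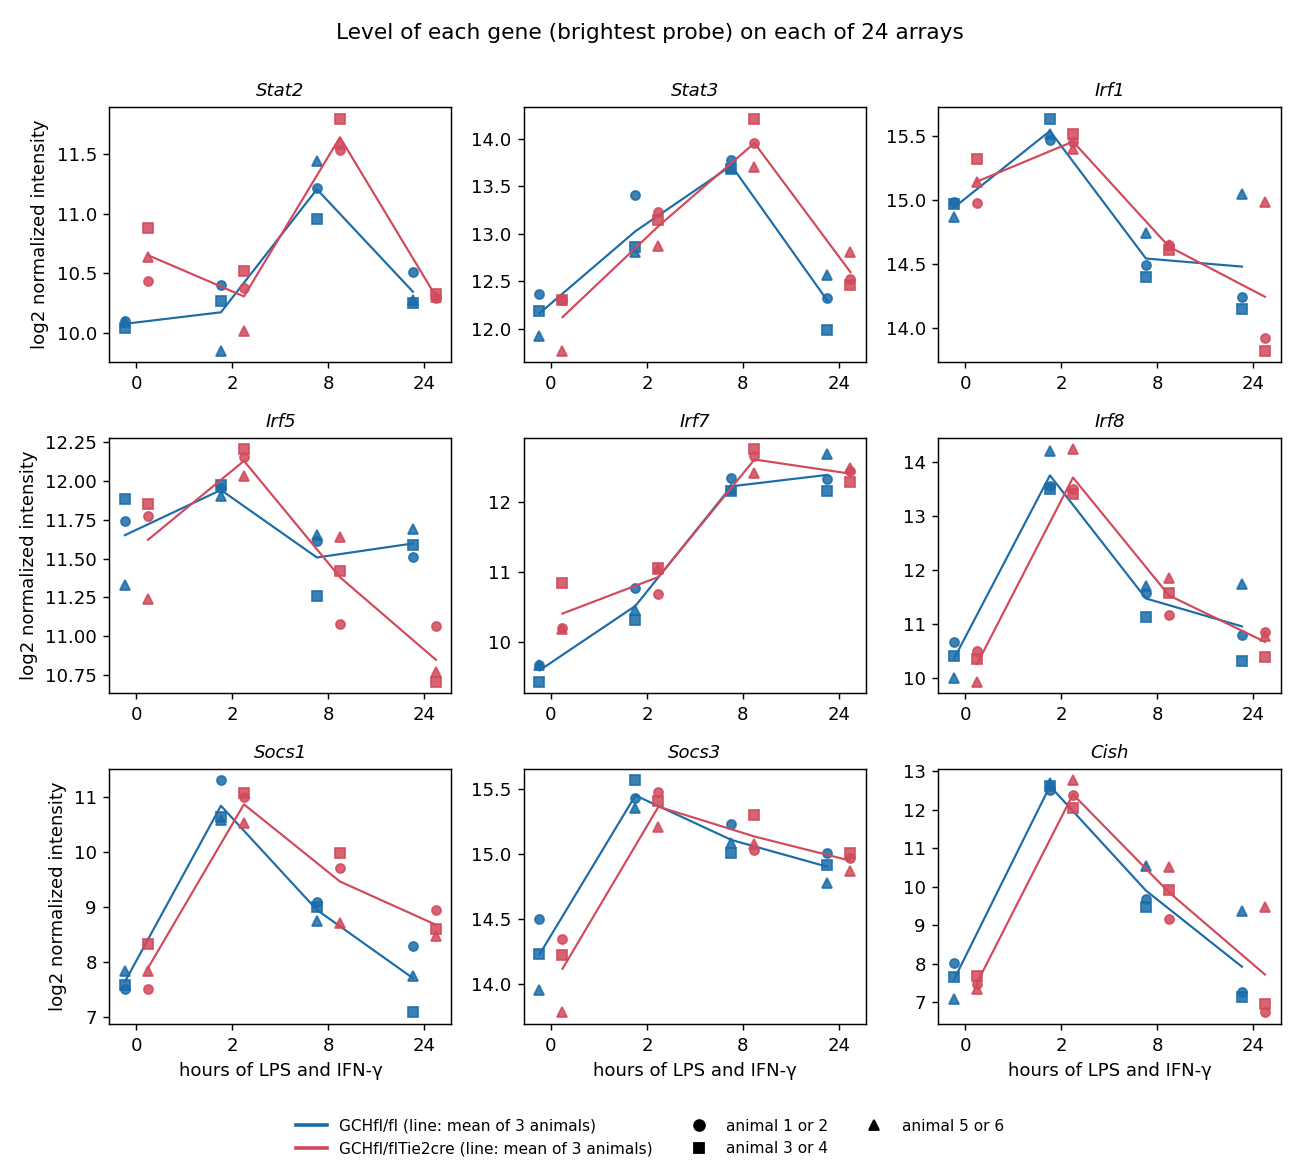
Log2 normalized intensity of the brightest probe of each gene (vertical axis, its own scale in each panel) at 0, 2, 8 and 24 h of LPS and interferon-γ (evenly spaced, not to scale), 1 point for each animal and a line through the mean of 3 animals in each genotype. Cish, Irf8 and Socs1 peaked at 2 h in both genotypes, Stat2 and Stat3 at 8 h, and Irf7 stayed high at 24 h; triangles are animals 5 and 6.

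Between times the group split. From 2 to 8 h, Stat2, Stat3 and Irf7 rose in both genotypes while Irf1, Irf8, Socs1 and Cish fell, giving 3 up and 4 down in GCHfl/fl cells (19.7% and 17.1% of all genes) and, with Irf5, 3 up and 5 down in GCHfl/flTie2cre cells (20.8% and 18.2%). From 8 to 24 h, 0 rose and 4 fell in GCHfl/fl cells, Stat2, Stat3, Socs1 and Cish, where 16.6% of all genes rose and 12.4% fell. In GCHfl/flTie2cre cells the same 4 and Irf8 fell, 0 rose and 5 fell, against 17.8% and 13.7% of all genes. Of these falls 2 were called in GCHfl/fl cells without animal 3, and 2 in GCHfl/flTie2cre cells without animal 4. In GCHfl/fl cells 16.6% of all probes were called in either direction without animal 3, against 28.1% with all animals. The share in GCHfl/flTie2cre cells without animal 4 is not given here. Each of the 4 genes with the GAS letters in a promoter window, Irf1, Irf8, Socs3 and Cish, had its highest mean at 2 h in both genotypes, as did Irf5 and Socs1, whose windows lack them.

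**Figure D2:**
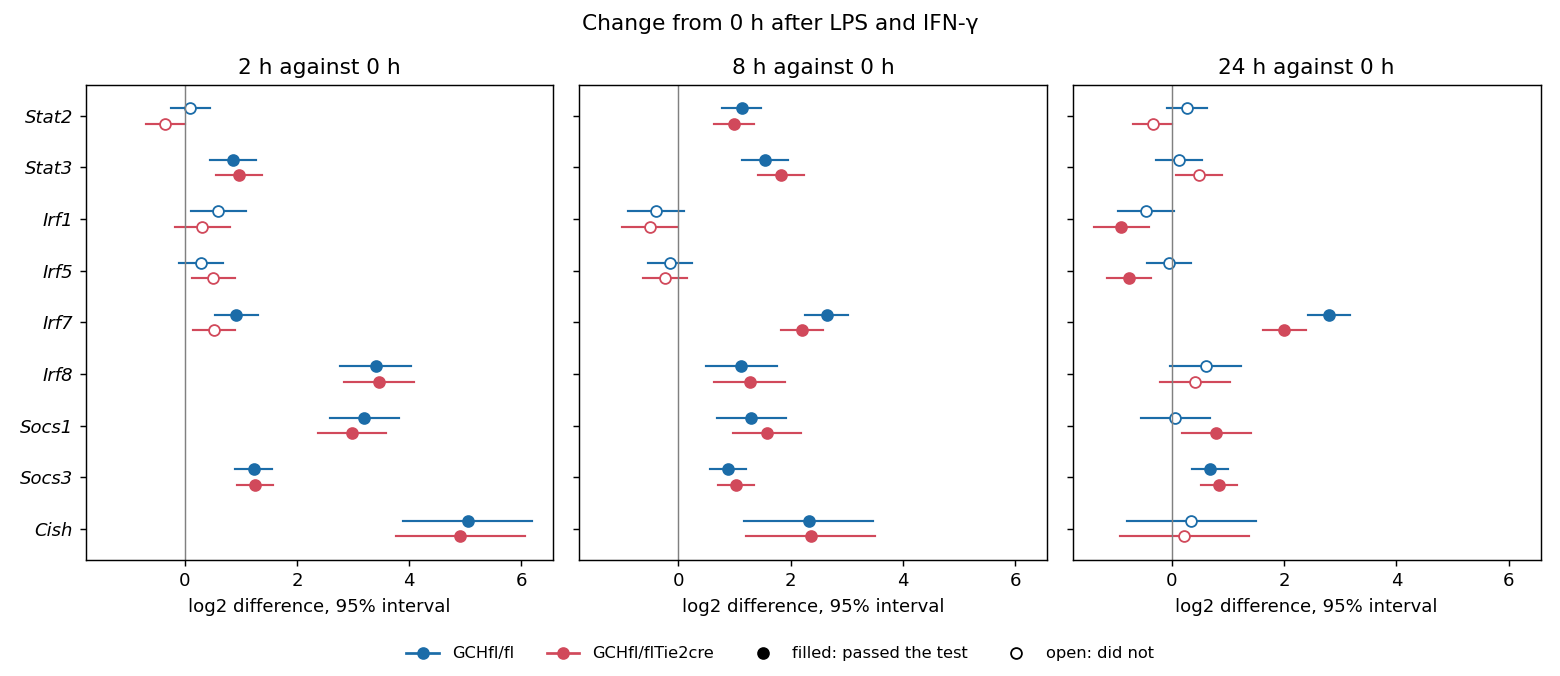
Log2 difference from 0 h with its 95% interval (horizontal axis) for the 9 genes at 2, 8 and 24 h in GCHfl/fl (blue) and GCHfl/flTie2cre (red) cells, filled where the change passed the test. At 2 h the largest changes were Cish at 5.04 and 4.91, Irf8 at 3.40 and 3.46 and Socs1 at 3.20 and 2.98, and by 24 h Irf7 stood highest at 2.80 and 2.00.

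Both STAT genes peaked at 8 h. Stat2 encodes a subunit of the complex that answers type I interferon, and its probe passed the test against 0 h only at 8 h. It read 10.10, 10.04 and 10.09 at 0 h in GCHfl/fl animals 2, 3 and 6, then 10.40, 10.27 and 9.85 after 2 h, 11.22, 10.96 and 11.44 after 8 h and 10.51, 10.25 and 10.28 after 24 h. In GCHfl/flTie2cre animals 1, 4 and 5 it read 10.44, 10.88 and 10.64, then 10.38, 10.52 and 10.02, then 11.54, 11.80 and 11.59, and 10.29, 10.33 and 10.30. All 8 h values lay above every other value of their genotype. The 8 h rise was 1.13 ± 0.17 (2.19-fold, limma adjusted p = 3.81e-05) in GCHfl/fl and 0.99 ± 0.17 (1.99-fold, adjusted p = 0.000134) in GCHfl/flTie2cre cells, and from 8 to 24 h Stat2 fell by 0.86 and 1.33. The 24 h arrays did not overlap those of 0 h either, at 0.27 above in GCHfl/fl cells and at -0.34 in GCHfl/flTie2cre cells, neither of which passed (adjusted p = 0.223 and 0.114).

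Stat3, which carries signals of the IL-6 and IL-10 families, rose at 2 h and further by 8 h. In GCHfl/fl animals 2, 3 and 6 its brightest probe read 12.37, 12.19 and 11.93 at 0 h, 13.41, 12.86 and 12.81 after 2 h, 13.78, 13.68 and 13.69 after 8 h and 12.33, 11.99 and 12.57 after 24 h. In GCHfl/flTie2cre animals 1, 4 and 5 it read 12.30, 12.30 and 11.77, then 13.23, 13.14 and 12.87, then 13.95, 14.21 and 13.70, and 12.52, 12.46 and 12.81. The 3 arrays of each time from 0 to 8 h did not overlap with those of the next, in either genotype. The rise was 0.86 ± 0.20 and 0.96 ± 0.20 at 2 h (limma adjusted p = 0.00419 and 0.00184) and 1.55 ± 0.20 and 1.83 ± 0.20 at 8 h (2.94-fold and 3.55-fold), the GCHfl/fl value first. Without animal 2 the GCHfl/fl value at 2 h was 0.77 with an adjusted p of 0.0661. The other 2 Stat3 probes also rose, by 1.13 to 1.37 at 2 h and by 1.64 to 2.42 at 8 h, although on 1 of them the further step from 2 to 8 h in GCHfl/fl cells was 0.36 (adjusted p = 0.208). On the brightest probe that step, 0.69 ± 0.20, had an adjusted p of 0.0085, and of 0.0811 and 0.0539 without animals 3 and 6. At 24 h no Stat3 probe passed the test against 0 h in either genotype. On the brightest probe animals 5 and 6 were then 1.04 and 0.64 above their own 0 h arrays. Animals 1, 2, 3 and 4 were at 0.23, -0.04, -0.20 and 0.17.

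Among the IRF genes, Irf8, a factor that sets the macrophage lineage and is itself induced by interferon-γ, had the largest change. It read 10.66, 10.41 and 9.99 at 0 h and 13.56, 13.49 and 14.20 after 2 h in GCHfl/fl animals 2, 3 and 6, followed by 11.57, 11.13 and 11.71 after 8 h and 10.80, 10.32 and 11.74 after 24 h. In GCHfl/flTie2cre animals 1, 4 and 5 it read 10.49, 10.35 and 9.93, then 13.49, 13.41 and 14.23, then 11.16, 11.58 and 11.84, and 10.85, 10.38 and 10.77. Animals 5 and 6 had the lowest values at 0 h and the highest at 2 h. The rise at 2 h was 3.40 ± 0.30 (10.5-fold, limma adjusted p = 4.11e-07) and 3.46 ± 0.30 (11-fold, adjusted p = 3.08e-07), and from 2 to 8 h Irf8 fell by 2.28 and 2.18. At 8 h it was still 2.17-fold and 2.42-fold above 0 h, the latter with an adjusted p of 0.0526 without animal 5. At 24 h the differences were 0.60 and 0.41 and did not pass. The further fall from 8 to 24 h in GCHfl/flTie2cre cells, 0.86, had an adjusted p of 0.0323, and 0.0522, 0.259 and 0.117 without animals 2, 4 and 5. In GCHfl/fl cells that difference was -0.52 (adjusted p = 0.208), and with animals 1 to 4 alone it was -0.79 (adjusted p = 0.0087) against -0.76 (0.0103) in GCHfl/flTie2cre cells. The rise at 2 h was 2.99 and 3.03 in animals 1 to 4 alone.

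Irf7, the factor that amplifies type I interferon production, rose late and stayed high. It read 9.67, 9.43 and 9.67 at 0 h in GCHfl/fl animals 2, 3 and 6, then 10.77, 10.31 and 10.46, 12.34, 12.15 and 12.18, and 12.33, 12.15 and 12.68 at 2, 8 and 24 h. In GCHfl/flTie2cre animals 1, 4 and 5 it read 10.19, 10.84 and 10.18, then 10.68, 11.06 and 11.04, then 12.66, 12.75 and 12.41, and 12.44, 12.28 and 12.49. The 8 and 24 h values overlapped in each genotype and lay above all values at 0 and 2 h. The rise in GCHfl/fl cells was 0.92 ± 0.18 at 2 h (limma adjusted p = 0.00133), 2.64 ± 0.18 at 8 h and 2.80 ± 0.18 at 24 h (6.94-fold, adjusted p = 1.94e-09). In GCHfl/flTie2cre cells it was 0.52 ± 0.18 at 2 h (adjusted p = 0.0518, not passing), 2.20 at 8 h, then 2.00 at 24 h (4.00-fold, adjusted p = 1.34e-07).

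Irf1, a factor that drives interferon-γ-responsive genes, was already bright before stimulation. On its brightest probe GCHfl/fl animals 2, 3 and 6 read 14.99, 14.97 and 14.87 at 0 h, 15.47, 15.64 and 15.52 after 2 h, 14.49, 14.40 and 14.74 after 8 h and 14.24, 14.15 and 15.05 after 24 h. GCHfl/flTie2cre animals 1, 4 and 5 read 14.98, 15.32 and 15.14, then 15.46, 15.52 and 15.40, then 14.65, 14.61 and 14.65, and 13.92, 13.82 and 14.99. Every 2 h value lay above every 0 h value of its genotype, yet the differences, 0.60 ± 0.24 and 0.31 ± 0.24, did not pass (limma adjusted p = 0.0907 and 0.407). At 2 h only 3 to 56 probes on an array were brighter than this one, and the highest value on any array was 15.69. Whether the top of the scale limits its response was not tested. In GCHfl/fl cells the 2 h difference passed without animal 5 (0.60, adjusted p = 0.0349) and with array weights (0.64, adjusted p = 0.000137). The other 4 probes, which lie lower on the scale, rose at 2 h in GCHfl/fl cells by 1.32, 1.46, 1.59 and 2.11 (adjusted p = 0.0328, 0.0301, 0.0283 and 0.0078), so 7 of 9 genes rose there when any probe counts. In GCHfl/flTie2cre cells they differed by 1.13, 1.15, 1.22 and 1.53, of which the last passed (adjusted p = 0.048), so 6 of 9 rose when any probe counts. The shares of all genes given above use the brightest probe alone, and the share by any probe was not computed.

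Between 2 and 8 h Irf1 fell on all 5 probes in both genotypes, by 1.00 and 0.82 on the brightest, with differences of -2.45 to -1.64 on the others. In GCHfl/flTie2cre cells the fall on the brightest probe had a limma adjusted p of 0.00854, and 0.0557 and 0.0631 without animals 1 and 4. At 24 h the animals separated. Animals 1 to 4 were 0.76 to 1.49 below their own 0 h array on the brightest probe, whereas animal 5 was at -0.15 and animal 6 at 0.18. The other 4 probes had animals 1 to 4 lower by 1.65 to 2.69 and animals 5 and 6 between -0.14 and 0.71. The brightest probe fell by 0.90 ± 0.24 in GCHfl/flTie2cre cells (adjusted p = 0.00563; 0.0565 and 0.161 without animals 1 and 4) and was at -0.47 ± 0.24 in GCHfl/fl cells (adjusted p = 0.132). With animals 1 to 4 alone the GCHfl/fl value was -0.79 (adjusted p = 0.000885). On the other probes the GCHfl/fl difference was -1.19 on the 1 that passed (adjusted p = 0.03) and -1.04 to -1.26 on the other 3, and in GCHfl/flTie2cre cells all 4 fell, with differences of -1.78 to -1.27. From 8 to 24 h the brightest probe differed by -0.39 in GCHfl/flTie2cre cells, which did not pass, and by -0.07 in GCHfl/fl cells. The GCHfl/flTie2cre value was -0.75 with animals 1 to 4 alone (limma adjusted p = 0.00113). Without animal 5 it was -0.75 (adjusted p = 0.0219), and with array weights -0.73 (adjusted p = 0.000247). What sets animals 5 and 6 apart was not tested.

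**Figure D3:**
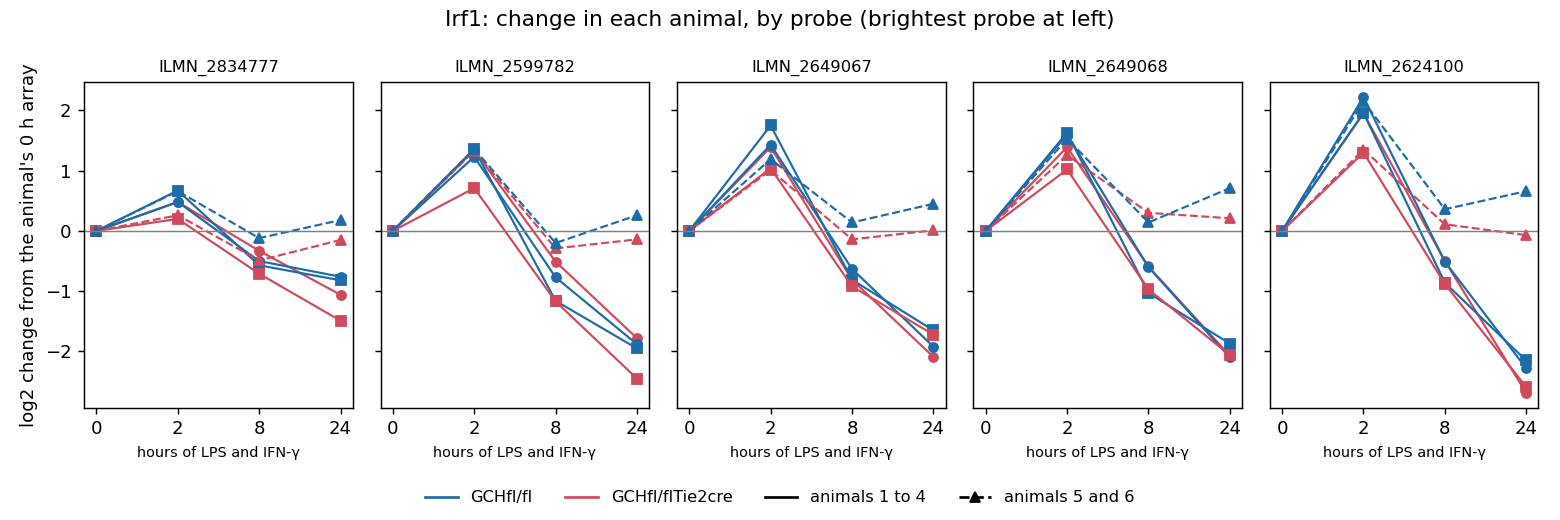
Log2 change of each Irf1 probe from the same animal's 0 h array (vertical axis) at 2, 8 and 24 h (evenly spaced), 1 line for each animal, for 5 probes from brightest at left to dimmest at right. All 6 animals were higher at 2 h on every probe, and at 24 h animals 5 and 6 (dashed) lay between -0.15 and 0.71 while the other 4 lay between -2.69 and -0.76.

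Irf5, which acts downstream of Toll-like receptors, stayed within a narrow range. GCHfl/fl animals 2, 3 and 6 read 11.74, 11.88 and 11.33 at 0 h, 11.95, 11.97 and 11.90 after 2 h, 11.61, 11.26 and 11.65 after 8 h and 11.51, 11.59 and 11.69 after 24 h, with no change from 0 h that passed. GCHfl/flTie2cre animals 1, 4 and 5 read 11.77, 11.85 and 11.24, then 12.15, 12.20 and 12.03, then 11.08, 11.42 and 11.64, and 11.07, 10.71 and 10.77. All 3 of the 24 h values lay below the 0 h values, and the fall of 0.77 ± 0.19 passed (1.71-fold, limma adjusted p = 0.00328), although not without animal 4 (-0.59, adjusted p = 0.105). From 2 to 8 h Irf5 fell by 0.75 in these cells (adjusted p = 0.00334; 0.0646 without animal 1).

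The inhibitors had all risen by 2 h. Cish, an inhibitor known as a target of STAT5, had the largest change of the 9 genes. It read 8.01, 7.66 and 7.08 at 0 h in GCHfl/fl animals 2, 3 and 6, then 12.52, 12.63 and 12.71 after 2 h, 9.68, 9.48 and 10.54 after 8 h and 7.25, 7.14 and 9.37 after 24 h. In GCHfl/flTie2cre animals 1, 4 and 5 it read 7.48, 7.67 and 7.35, then 12.39, 12.05 and 12.77, then 9.15, 9.91 and 10.51, and 6.73, 6.94 and 9.48. The 2 h values stood far above all others in both genotypes. The rise was 5.04 ± 0.55 (32.9-fold, limma adjusted p = 3.28e-06) and 4.91 ± 0.55 (30-fold, adjusted p = 4.97e-06) at 2 h, and 2.32 and 2.36 (4.99-fold and 5.13-fold) at 8 h. The 0 h values lay not far above the lowest detected level of those arrays (6.25 to 6.59). Over the other settings the 2 h rise ran from 4.13 to 5.30 and from 3.97 to 5.17.

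At 24 h the animals again separated for Cish. Animals 1 to 4 were 0.52 to 0.76 below their own 0 h arrays, and animals 5 and 6 were 2.13 and 2.29 above theirs, the same 2 animals in which Irf1 had not fallen. Over all animals the differences were 0.34 ± 0.55 and 0.22 ± 0.55 (limma adjusted p = 0.669 and 0.791). With animals 1 to 4 alone Cish fell by 0.64 and 0.74 against 0 h (adjusted p = 0.0309 and 0.016). The fall from 8 to 24 h, by 1.98 and 2.14, had adjusted p = 0.00954 and 0.00504. It did not pass without animal 2 or 3 in GCHfl/fl cells (0.0952 and 0.098) or without animal 4 in GCHfl/flTie2cre cells (0.112).

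Socs1, which binds JAK kinases and is the main brake on interferon-γ signalling, read 7.51, 7.57 and 7.84 at 0 h in GCHfl/fl animals 2, 3 and 6, then 11.30, 10.63 and 10.58, 9.09, 8.99 and 8.75, and 8.29, 7.08 and 7.74. In GCHfl/flTie2cre animals 1, 4 and 5 it read 7.50, 8.32 and 7.84, then 11, 11.06 and 10.53, then 9.70, 9.98 and 8.70, and 8.95, 8.60 and 8.47. Every 2 h value lay above all others, and at 24 h the GCHfl/fl values overlapped those at 0 h while those of GCHfl/flTie2cre cells lay above them. The rise was 3.20 ± 0.29 (9.16-fold, limma adjusted p = 6.5e-07) and 2.98 ± 0.29 (7.88-fold, adjusted p = 1.35e-06) at 2 h, declining to 1.30 and 1.58 by 8 h. Its 0 h values were also low on the scale, and over the other settings the 2 h rise ran from 2.39 to 3.42 and from 2.20 to 3.12. At 24 h the difference from 0 h was 0.06 ± 0.29 in GCHfl/fl cells (adjusted p = 0.891) and 0.79 ± 0.29 in GCHfl/flTie2cre cells (adjusted p = 0.0418). That last call was lost in 11 of 16 other settings, among them leaving out animal 1 (0.45, adjusted p = 0.385), 3, 4, 5 or 6. From 8 to 24 h Socs1 fell by 1.24 and 0.79 (adjusted p = 0.00312 and 0.0431), the first not passing without animal 3 (0.0976) and the second not without animal 1, 3, 4 or 6 (0.126, 0.0527, 0.383 and 0.0525).

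Socs3, the inhibitor of signalling through the IL-6 receptor chain, rose least among the inhibitors and stayed up longest. GCHfl/fl animals 2, 3 and 6 read 14.50, 14.23 and 13.95 at 0 h, 15.43, 15.57 and 15.36 after 2 h, 15.23, 15.01 and 15.09 after 8 h and 15.01, 14.92 and 14.78 after 24 h. GCHfl/flTie2cre animals 1, 4 and 5 read 14.35, 14.22 and 13.78, then 15.48, 15.41 and 15.21, then 15.03, 15.30 and 15.08, and 14.97, 15.01 and 14.87. All stimulated values lay above all values at 0 h. The rise was 1.23 ± 0.16 and 1.25 ± 0.16 at 2 h (limma adjusted p = 1.75e-05 and 1.49e-05), 0.88 and 1.02 by 8 h, then 0.68 and 0.84 by 24 h (adjusted p = 0.0021 and 0.000342). In the authors' normalized values the GCHfl/fl difference at 24 h was 0.33 (adjusted p = 0.215). This probe also lay near the top of the scale, with 15 to 95 probes brighter on an array at 2 h.

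Genes around the 9 were counted from lists of the pathway, to be read against the shares of all genes that rose or fell at each time, given above (6.56% and 9.63% at 2 h in GCHfl/fl cells). Of 10 tested ligands of JAK-coupled receptors, 7 rose and 0 fell at 2 h in each genotype (median 2.48 and 2.09). Ifnb1, the gene of interferon-β, rose by 4.50 and 4.75 at 2 h, Il6 by 4.09 and 3.58 and Il27 by 3.98 and 3.80. At 24 h 0 of the ligands rose and 2 fell in GCHfl/fl cells, and 2 rose and 3 fell in GCHfl/flTie2cre cells. The 2 that fell in GCHfl/fl cells were Il10, an anti-inflammatory cytokine gene, at -1.84, and Csf2, detected on 1 of 3 arrays at 0 h and on 0 of 3 at 24 h. Of 4 JAK kinases, Jak2, which serves the interferon-γ receptor, was the only one called at 2 h in either genotype (1.51 and 1.34). Of 12 receptor chains, 2 rose and 2 fell at 2 h in GCHfl/fl cells and 2 rose and 1 fell in GCHfl/flTie2cre cells. Il4ra rose by 3.17 and 4.17 at 8 h, while Ifngr1, the ligand-binding chain for interferon-γ, fell by 1.93 and 1.68 at 8 h and Il10ra by 2.00 in both genotypes at 24 h.

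The same families hold other genes. Of 3 tested STAT genes outside the 9, Stat5a and Stat4 rose at 2 h, Stat5a by 2.12 and 2.42 and Stat4 by 1.23 and 1.14, where Stat3 had risen by 0.86 and 0.96. Of 3 other IRF genes 0 passed at 2, 8 or 24 h against 0 h in either genotype, and of 4 other SOCS genes only Socs4 did, in GCHfl/fl cells at 24 h (0.59). Of 11 other inhibitors, 2 rose and 1 fell at 2 h in GCHfl/fl cells and 1 rose and 2 fell in GCHfl/flTie2cre cells. Ptpn2, a phosphatase that acts on STAT proteins, rose by 1.72 and 1.58 at 2 h, and Usp18, an inhibitor of the type I interferon receptor, by 1.29 and 0.89 at 8 h.

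Known targets of these factors were counted in the same way. Of 11 type I interferon targets, 3 rose and 0 fell at 2 h in each genotype, and 8 and 6 rose and 1 fell by 8 h, when Stat2 and Irf7 were up. At 24 h, 3 rose and 0 fell in GCHfl/fl cells and 1 rose and 5 fell in GCHfl/flTie2cre cells, against 17.6% and 15.1%, and 17.5% and 15.7%, of all genes. Mx2, an antiviral GTPase gene, was then at -0.07 and -2.06. The test of the difference of 24 h responses called 0 of the 11 genes (median -0.70), with Mx2 at -1.99 ± 0.37 (limma adjusted p = 0.0891), and 0 of 11 were called between genotypes at 24 h. Of 9 STAT3 targets, 4 rose and 1 fell at 2 h in each genotype, with Bcl3 at 1.70 and 1.76. At 8 h, when Stat3 was highest, 2 rose and 0 fell in GCHfl/fl cells (14.6% and 16.6% of all genes). In GCHfl/flTie2cre cells 3 rose and 0 fell at 8 h (15.8% and 19.1%). Of 6 STAT5 targets, 3 rose and 0 fell at 2 h in each genotype, with the cyclin gene Ccnd2 at 2.24 and 1.54. The lists overlap: Pim1, Bcl2l1 and Ccnd1 are targets of both STAT3 and STAT5. Il4ra also counts as a receptor chain and Osm as a ligand.

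The genes whose brightest probe followed a member most closely over the 24 arrays, by Pearson's r, included other members. Cish was followed by Csrnp1 (0.963) and Irf8 (0.955), and Irf8 by Gm4841 and Cish (both 0.955). Stat3 was nearest to Map2k4 (0.957) and Nrg1 (0.953), Irf7 to Slfn1 (0.968) and Fbxl20 (0.948), and Stat2 to Stard3 (0.929) and Fez2 (0.924). Irf1 was nearest to Mycl (0.941) and Tnfaip2 (0.933), Socs1 to Tnfsf15 (0.939) and Errfi1 (0.921), and Socs3 to Inhba (0.93) and Il1a (0.924). Irf5 had the weakest neighbours, Ciita (0.858) and Exoc3l4 (0.844). The 24 arrays share their animals and time points, so these values describe a shared time course.

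The genotypes were compared at each time to ask whether loss of Gch1 alters the group. By limma 0 of 9 genes passed at 0, 2, 8 or 24 h, where 0.0225% of all genes passed at each of the first 3 times and 0.338% at 24 h. At an unadjusted p under 0.05 there were 2, 1, 1 and 2 members, where 1.61%, 2.28%, 4.38% and 9.68% of all genes stood. Array weighting, an alternative fit whose weight estimation stopped before it converged, called 1 member at 0 h, with 2 called at 24 h, and the fit with animals 5 and 6 as an added term called 1 at 24 h. These fits called more of all probes too: array weighting 0.479% at 0 h and 12.8% at 24 h, and the added term 1.42% at 24 h, against 0.0242% and 0.321%. At 0 h the 95% interval was narrowest for Socs3 (-0.46 to 0.23) and widest for Cish (-1.31 to 1.14). With 3 animals a genotype, differences within a gene's interval are not excluded. Such an interval is not a detection limit, since a call also needs the adjustment over all tested probes. Irf7 at 0 h, at 0.82 with a 95% interval of 0.41 to 1.22, did not pass (limma adjusted p = 0.772).

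The widest gaps between genotypes were those of Irf7 and Stat2 at 0 h and of Irf5 and Socs1 at 24 h. At 0 h Irf7 was higher in GCHfl/flTie2cre cells, by 0.82 ± 0.19 (limma adjusted p = 0.772). With array weights its difference was 0.95 (adjusted p = 0.00691). Stat2 was higher by 0.58 ± 0.18 at 0 h and did not pass. Irf7 and Stat2 were also higher in GCHfl/flTie2cre cells at 8 h, by 0.38 and 0.44 (adjusted p = 0.999 and 0.991). At 24 h Irf5 was lower in these cells, by 0.75 ± 0.20 (adjusted p = 0.125, and 0.0485 with animals 5 and 6 as an added term). Socs1 was higher in them at 24 h, by 0.97 ± 0.31 (adjusted p = 0.221, and 0.00775 at 1.08 with array weights). For Cish and Irf8, the genes with the largest responses, the genotypes differed at 2 h by -0.22 (95% interval -1.44 to 1.01) and -0.04 (-0.71 to 0.63). For Socs3 the differences lay between -0.11 and 0.05 over the 4 times. Of the genes in the lists, only Ccnd2 passed between genotypes, at 24 h (1.53 ± 0.32, adjusted p = 0.0376).

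**Figure D4:**
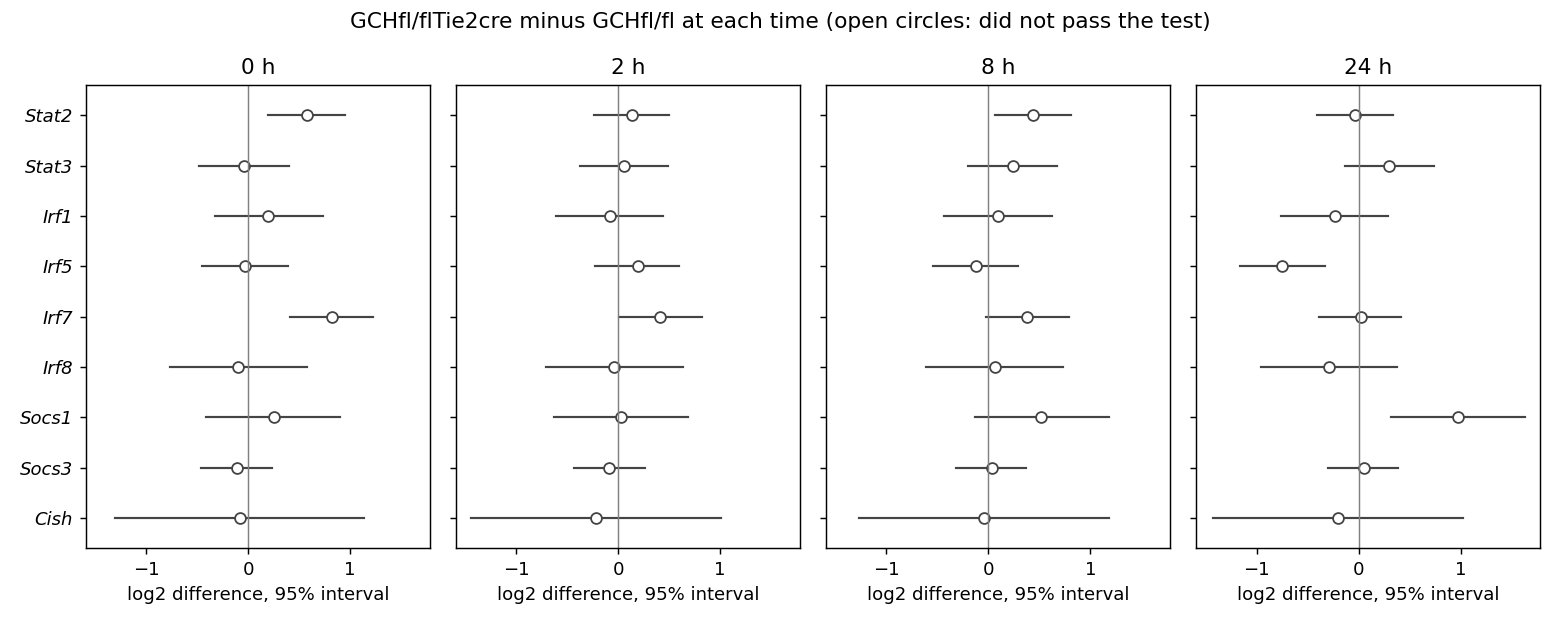
Log2 difference of GCHfl/flTie2cre minus GCHfl/fl with its 95% interval (horizontal axis) for the 9 genes at 0, 2, 8 and 24 h, open where it did not pass the test. No gene passed at any time; the intervals of Irf7 and Stat2 at 0 h and of Irf5 (-0.75) and Socs1 (0.97) at 24 h leave out 0, as do those of Irf7 at 2 h (0.41) and Stat2 at 8 h (0.44).

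The test of the difference between the 2 responses also called 0 members by limma at 2, 8 and 24 h, against 0%, 0% and 0.0113% of all genes, with 0, 0 and 3 members at an unadjusted p under 0.05, a level that 1.09%, 1.97% and 5.51% of all genes reached. Those 3 were at 24 h: Irf7 at -0.80 ± 0.26 (adjusted p = 0.511), Irf5 at -0.72 ± 0.27 (adjusted p = 0.651) and Stat2 at -0.61 ± 0.24 (adjusted p = 0.679). Array weighting called all 3 (adjusted p = 0.0117, 0.0149 and 0.0308), and 9.02% of all probes against 0.0121% without weights. No other alternative called a member. The smaller 24 h response of Irf7 in GCHfl/flTie2cre cells came with a higher level at 0 h, since at 24 h the genotypes were 12.39 and 12.40.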

How the data were processed

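RNA of 24 macrophage cultures was labelled and hybridised to Illumina mouse arrays, 1 array a culture, and the submitters' notes name R 2.14 and limma. The authors deposited probe intensities on a linear scale with a detection p-value for each probe and array, and log2 values that they had normalized by variance stabilization (VSN). Whether background had been subtracted from the intensities is not given in the sources used here. Every deposited column belonged to 1 of the 24 samples.

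Intensities were background-corrected from the detection p-values, given an offset of 16 and quantile-normalized (neqc, limma 3.58.1, R 4.3.3, statmod 1.5.0). Of 45281 probes, 16498 were tested. A linear model of 8 group means was fitted with the animal as a random block (consensus correlation 0.124), with Benjamini-Hochberg adjustment over all tested probes. Replicates are separate animals, and their number, 3 a group, limits the precision. The pairing comes from the labels, which give each animal at all 4 times: deviations of the same animal at different times correlated at a median of 0.256 (lowest -0.028). The study describes its array data as paired in a figure legend and in a supplementary table legend. Which animals would pair between genotypes is not given in the sources used here, so the genotypes were compared without pairs. No 2 arrays of a group correlated above 0.9898. The fit was tested on simulated data.

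The text names every member probe, Gch1, of each pathway list up to 3 genes a direction with the largest fold in GCHfl/fl cells and those called between genotypes, and the 2 genes most like each member. One list of target genes is not reported here. Members, lists and this rule were chosen with earlier results of these data known. Alternatives were the deposited log2 values, no background correction, cyclic loess, other detection filters, no block or a fixed block, array weights, animals 5 and 6 as a term, other probes and leaving out each animal. Promoters came from RefSeq (GRCm38.p6), and figures were drawn with matplotlib 3.10.9.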

Additional observations from a re-analysis of the deposited data

Results flagged for a closer look

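Stat2 was singled out because its 24 h response differed in sign between the genotypes: from 0 to 24 h it changed by 0.41, 0.20 and 0.19 on the log2 scale in GCHfl/fl animals 2, 3 and 6 and by -0.15, -0.55 and -0.33 in GCHfl/flTie2cre animals 1, 4 and 5. The difference of the 2 responses was -0.61 (95% interval -1.11 to -0.12), with a limma adjusted p of 0.679 that does not pass, and neither response passed on its own (adjusted p = 0.223 and 0.114). The genotypes were apart at 0 h (0.58) and close at 24 h (-0.04).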

How the results depend on the processing

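Of 2514 values of single genes under the alternatives, 2444 kept their side of the threshold (98 of them, called in neither fit, with another sign), 40 lost a call, 28 gained one and 2 reversed, both for Cish at 24 h, -0.64 and -0.74 with animals 1 to 4 alone, an alternative chosen after seeing the data. Counts of members called moved by over 1.5 times as follows. The deposited values gave 1 in place of 2 at 24 h in GCHfl/fl cells and 3 in place of 5 in GCHfl/flTie2cre cells. Of all probes they called 22.5% in place of 32.3% and 23% in place of 32.6%. Animals 1 to 4 alone gave 4 in GCHfl/fl cells, and the share of all probes in that fit is not given here. Without a detection filter, 3 in place of 5 fell from 8 to 24 h in GCHfl/flTie2cre cells, where more probes were tested. The share of all probes called there was 9.93% in place of 30.8%. Between genotypes, array weights, whose estimation stopped before it converged, called 1 at 0 h, 2 at 24 h and 3 for the difference of 24 h responses, and animals 5 and 6 as an added term called 1 at 24 h, all in place of 0. The causes were not tested.

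Leaving out 1 animal at a time, the counts against 0 h ran from 5 to 7, 7 to 7 and 2 to 3 at 2, 8 and 24 h in GCHfl/fl cells and from 5 to 5, 6 to 7 and 2 to 5 in GCHfl/flTie2cre cells. From 2 to 8 h they ran from 6 to 7 and 6 to 8, and from 8 to 24 h from 2 to 4 and 2 to 5. Between genotypes and for the differences of responses they stayed at 0. Shares of all probes moved too: at 2 h in GCHfl/fl cells 7.34% were called without animal 2, against 15.3% with all animals. Without the replicate block, 4 in place of 5 members were called at 24 h against 0 h and from 8 to 24 h in GCHfl/flTie2cre cells, and a fixed block gave 5 and 5. Of all probes 29.7% and 28% were called without the block, 33.9% and 31.9% with a fixed block, and 32.6% and 30.8% in the main fit.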
